A study of Mus musculus with 10 samples.

Results

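The bone morphogenetic protein (BMP) signalling genes described here are 10 genes that were chosen by name, namely the ligands Bmp2, Bmp4, Bmp5, and Bmp7, the secreted modulator Bmper, the inhibitory SMADs Smad6 and Smad7, and the targets Id1, Id2, and Id3. All 10 are among the 15686 genes of the matrix of stage means that was deposited with the counts, and all 10 passed the filter on low counts. Nuclear RNA-seq was available for HM-1 cells, a mouse embryonic stem (ES) cell line, and for 4 populations sorted from its differentiation in serum, with 2 libraries per stage and 10 in all. ES cells were kept undifferentiated with LIF (leukemia inhibitory factor). The hemangioblast population (HB) held the FLK1+ cells of embryoid bodies grown for 3 d, and the blast cultures made from it, with VEGF, IL-6, and D4T conditioned medium beside serum, gave early hemogenic endothelium (HE1, KIT+ TIE2+ CD41-), its later stage (HE2, KIT+ TIE2+ CD41+), and hematopoietic progenitors (HP, KIT+ TIE2- CD41+). The medium thus differs between ES, HB, and the 3 later stages, and its part and that of the stage cannot be told apart between them. The populations are gates on surface markers of cultures of 1 line, and the p-values measure the spread between these libraries. The labels give only replicate numbers, and the study describes the replicates behind its expression values as biologically independent. Between 24920434 and 58782055 counts per library fell on genes, and the floor of 3 counts corresponds to 0.0532 to 0.126 CPM. HE1 replicate 2 stood apart from HE1 replicate 1 in its markers of cell types, with a summed level of 97.6 against 8.41 CPM for 7 pluripotency markers (7 against 3 of them at 1 CPM or more), and results that rest on it are given with and without it.

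BMP ligands are secreted as dimers that bind type I and type II receptor kinases. The receptors phosphorylate SMAD1, SMAD5, and SMAD9, which enter the nucleus with SMAD4 and switch on target genes. Smad6 and Smad7 belong to these targets and feed back to block the receptors, and the ID genes code for inhibitors of basic helix-loop-helix factors. In the mouse embryo BMP4 is known for its part in the formation of mesoderm and of the FLK1+ cells from which blood and endothelium arise.

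The highest mean level of the 4 ligands and Bmper was in HB, whereas that of Smad6, Smad7, Id1, Id2, and Id3 was in HE1. The lead over the next stage passed an adjusted p of 0.05 for the 4 ligands, Smad6, and Id1, but only that of Bmp5 passed in every fit that left out 1 library, and the losses of the others are given with each gene or step. It did not for Bmper (adjusted p = 0.102 against HE1), Smad7 (0.174 against ES), Id3 (0.386 against HB), or Id2 (0.804 against HE2), all with edgeR's quasi-likelihood test. Levels are given as CPM, which are counts divided by library sizes that were scaled with the TMM method, in the order replicate 1 and replicate 2. A gene was called when edgeR's quasi-likelihood test gave an adjusted p under 0.05 and the change was at least 2-fold, in a fit on all 22596 genes that passed the filter. From ES to HB, 7 of the 10 genes were called higher and 0 lower, where 11.5% of all tested genes were called higher and 17.3% lower. The 3 genes that were not called were Id1, Smad7, and Id2. Of the 7, Bmp2, Bmp7, and Bmper stand on a list of genes that the study chose on these libraries as activated between ES and HB, so their rise is not independent evidence. The median log2 fold change of the 10 genes was 2.18, against 0 over all tested genes.

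**Figure D1:**
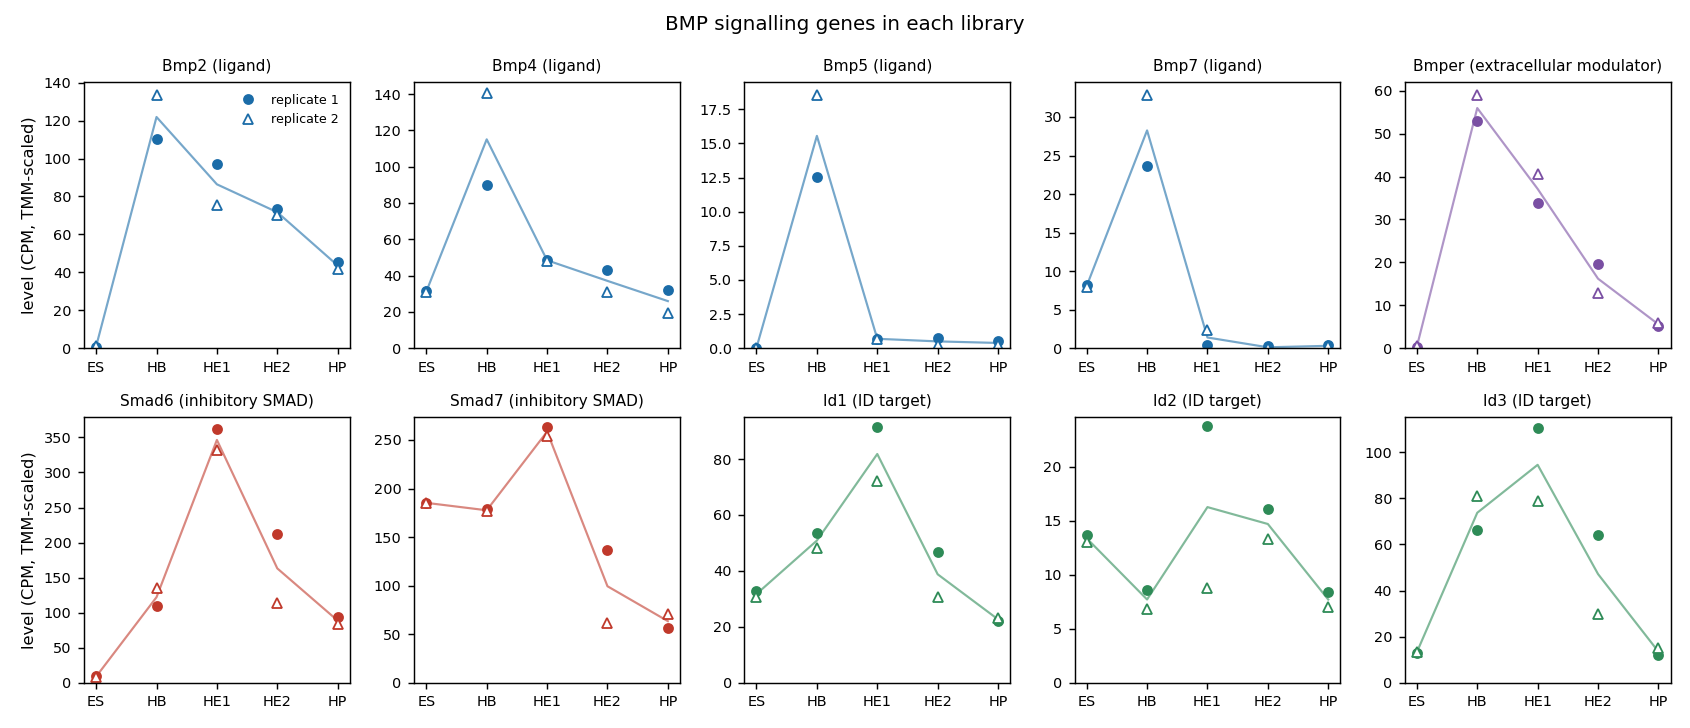
Level of each of the 10 genes (vertical axis, CPM on TMM-scaled library sizes, from 0) in ES, HB, HE1, HE2, and HP (horizontal axis); circles are replicate 1, triangles replicate 2, and lines join the means of the 2 libraries. The ligands and Bmper peak in HB, Smad6, Smad7, and Id1 peak in HE1, and the 2 HE1 libraries of Id2 lie far apart at 23.8 and 8.78 CPM.

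Of the 7 genes called higher in HB, no promoter window was available for Bmp2 and Bmp7, and that of Id3 lies in its exons. For the other 4, the 250 bases before the annotated start lie outside the gene's own exons and are shown because these genes rose together. They are read 5' to 3' on the gene's strand from RefSeq (GRCm38.p6), and the last base of the Bmp5 window, which falls in an exon, is left out. Capitals mark the motifs that were found.
Bmp4, chr14:46390670-46390919, minus strand: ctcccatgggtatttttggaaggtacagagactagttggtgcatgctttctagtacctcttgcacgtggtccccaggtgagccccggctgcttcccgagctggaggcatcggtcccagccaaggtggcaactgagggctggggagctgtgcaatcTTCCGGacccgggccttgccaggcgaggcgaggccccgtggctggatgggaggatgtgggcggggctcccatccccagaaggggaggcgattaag
Bmp5, chr9:75775115-75775363, plus strand: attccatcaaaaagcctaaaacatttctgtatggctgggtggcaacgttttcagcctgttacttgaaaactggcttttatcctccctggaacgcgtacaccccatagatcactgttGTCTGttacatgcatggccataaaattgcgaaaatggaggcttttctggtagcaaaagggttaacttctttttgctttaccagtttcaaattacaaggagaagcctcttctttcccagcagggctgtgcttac
Bmper, chr9:23222826-23223075, plus strand: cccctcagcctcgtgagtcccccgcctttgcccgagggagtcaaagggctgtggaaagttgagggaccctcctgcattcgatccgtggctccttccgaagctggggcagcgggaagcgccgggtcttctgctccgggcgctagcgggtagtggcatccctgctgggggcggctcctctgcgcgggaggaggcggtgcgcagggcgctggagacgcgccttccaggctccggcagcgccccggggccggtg
Smad6, chr9:64022060-64022309, minus strand: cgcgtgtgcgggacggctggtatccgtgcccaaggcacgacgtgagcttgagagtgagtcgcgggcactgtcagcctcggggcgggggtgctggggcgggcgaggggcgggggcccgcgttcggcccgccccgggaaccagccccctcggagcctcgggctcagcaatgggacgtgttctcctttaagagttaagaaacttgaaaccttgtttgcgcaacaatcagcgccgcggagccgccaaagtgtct

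In these windows both strands were searched for the SMAD motif CAGAC, the GC-rich SMAD motif GGCGCC, the GATA core AGATAA, and the ETS core CCGGAA. Bmp5 held 1 SMAD motif at -134 to -130 from the start, read there as GTCTG, and Bmp4 held 1 ETS core at -95 to -90, read there as TTCCGG. None of these letters was found in the windows of Bmper and Smad6, which have a GC content of 71.6% and 66.8%, against 63.2% for Bmp4 and 42.8% for Bmp5. Of 32851 promoter windows in the table, 42.2% held CAGAC, 9.59% GGCGCC, 9.99% AGATAA, and 12.0% CCGGAA. A match is a description of the letters and not a site of binding.

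Bmp2 codes for a ligand of the same subfamily as BMP4 and lies on chromosome 2 (133552159 to 133562885, plus strand). ES cells held 0.798 and 1.06 CPM, HB 110 and 134 CPM, HE1 97.1 and 75.7 CPM, HE2 73.4 and 70.0 CPM, and HP 45.4 and 41.7 CPM. The libraries of no 2 stages overlapped, and after HB the gene was lower in each later stage. From ES to HB it rose by a log2 fold change of 7.06 ± 0.23 (SE, adjusted p = 1.26e-07). The decrease to HE1 passed the adjusted p (-0.50 ± 0.17, adjusted p = 0.0472) but was under 2-fold. It no longer passed with a replicate block (0.0729), with only the 4 libraries (0.0652), without HB replicate 2 (-0.39, adjusted p = 0.242), without HE1 replicate 2 (-0.32, adjusted p = 0.226), or without any 1 of the HE2 and HP libraries (0.0519 to 0.0621). Neither HE1 and HE2 (adjusted p = 0.272) nor HE2 and HP (adjusted p = 0.164) differed beyond the spread, and HP remained higher than ES by 5.57 ± 0.22 (adjusted p = 1.04e-07).

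Bmp4, the ligand best known from mesoderm formation, lies on chromosome 14 (46383520 to 46390669, minus strand) and had the highest level of these 4 ligands in ES, in CPM and per length. ES cells had 31.3 and 31.0 CPM, HB cells 89.7 and 140 CPM, HE1 cells 48.6 and 48.2 CPM, HE2 cells 43.0 and 31.1 CPM, and HP cells 32.2 and 19.6 CPM. The HB libraries lay above all others, and those of HE2 and HP overlapped with ES. Bmp4 rose by 1.88 ± 0.27 from ES to HB (adjusted p = 0.00035) and fell by 1.25 ± 0.27 on the log2 scale from HB to HE1 (adjusted p = 0.00594). Without HB replicate 2 the latter log2 fold change was -0.93 (adjusted p = 0.0512), so that its call rests on that library. HE2 and HP did not differ from ES beyond the spread (adjusted p = 0.462 and 0.435).

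Bmp5, which codes for a ligand of the subfamily of BMP7, lies on chromosome 9 (75775364 to 75900310, plus strand) and was found almost entirely in HB. It had 2 and 1 counts in the ES libraries, which is 0.0355 and 0.0287 CPM and under the floor of 3 counts per library that was used here. In HB it stood at 12.6 and 18.6 CPM, in HE1 at 0.673 and 0.693 CPM, in HE2 at 0.731 and 0.254 CPM, and in HP at 0.502 and 0.254 CPM. With 1039 counts in HB against 3 in ES over both libraries, the ratio of CPM was 481, with an exact 95% interval of 164 to 2334 that covers counting error only. The test gave an adjusted p of 7.17e-06 for this rise, and for the decrease from HB to HE1 a log2 fold change of -4.50 ± 0.51 (adjusted p = 0.000162). The libraries of HE2 overlapped with those of HE1 and of HP, and the adjusted p-values between these 3 stages lay between 0.283 and 1.

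Bmp7 lies on chromosome 2 (172868012 to 172940321, minus strand) and was the only one of these 4 ligands with a lower level in HE1 than in ES. The level in ES was 8.21 and 7.91 CPM, that of HB 23.7 and 32.9 CPM, that of HE1 0.378 and 2.38 CPM, that of HE2 0.213 and 0 CPM, and that of HP 0.342 and 0.254 CPM. The stages up to HE1 did not overlap, and as a ratio the 2 HE1 libraries differed more for Bmp7 than for the other 3 ligands. Bmp7 fell by 4.32 ± 0.69 on the log2 scale from HB to HE1 (adjusted p = 0.00121) and was lower in HE1 than in ES (-2.51 ± 0.66, adjusted p = 0.00826). The former was -6.21 without HE1 replicate 2 (adjusted p = 0.000383) and -3.62 without HE1 replicate 1 (adjusted p = 0.00168). The latter was -4.40 without HE1 replicate 2 (adjusted p = 0.000812) and -1.79 without HE1 replicate 1 (adjusted p = 0.016), and it was not called when only the 4 libraries were fitted (adjusted p = 0.0522). The rise from ES to HB (1.81 ± 0.60, adjusted p = 0.0339) was not called with DESeq2 (adjusted p = 0.173), with total counts in place of TMM, or without any 1 of the 4 libraries compared (adjusted p = 0.0712 to 0.180). The further decrease to HE2 (-3.66 ± 0.94, adjusted p = 0.0344) rests on 7 and 0 counts in HE2 and on HE1 replicate 2, without which it was -1.77 (adjusted p = 0.323). That call was also lost with limma-voom (adjusted p = 0.0614), with only the 4 libraries (0.116), without HE2 replicate 2 (-2.69, adjusted p = 0.219), and without HB replicate 1 or 2 (0.0514 and 0.0527). HP against HE1 did not pass the test (-2.21, adjusted p = 0.0628). It was called with no filter on low counts (-2.20, adjusted p = 4.59e-06), and under the alternative settings the adjusted p ran up to 0.226. The log2 fold change was -0.32 without HE1 replicate 2 and -2.93 without HE1 replicate 1.

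On a scale that also divides the CPM by the exon length in kilobases (FPKM), the ligands changed places. Bmp4 made up 85.9% of the summed level per length of the 4 ligands in each ES library, Bmp7 12.6% and 12.2%, and Bmp2 1.39% and 1.86%. In HB, Bmp4 made up 49.9% and 55.4%, Bmp2 38.8% and 33.3%, Bmp7 7.37% and 7.25%, and Bmp5 3.90% and 4.09%. From HE1 on, Bmp2 and Bmp4 took nearly the whole sum, with Bmp2 at 55.6% and 48.9% in HE1, then 51.6% and 58.6% at HE2 and 46.8% and 57.1% in HP. The summed level per length was 16.2 and 16.1 FPKM in ES, 79.9 and 113 FPKM in HB, and 27.3 and 20.6 FPKM in HP. Bmp2 alone went from 0.224 and 0.298 FPKM in ES to 12.8 and 11.7 FPKM in HP.

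Bmper codes for a secreted protein that binds BMPs outside the cell and is known from endothelial precursors. It lies on chromosome 9 (23223076 to 23485200, plus strand). The level in ES was 0.213 and 0.487 CPM, that of HB 52.9 and 59.0 CPM, that of HE1 33.8 and 40.5 CPM, that of HE2 19.5 and 12.8 CPM, and that of HP 5.13 and 5.94 CPM. It was lower in each stage after HB with no overlap between libraries. Bmper rose by 7.40 ± 0.37 from ES to HB (adjusted p = 6.25e-07), or by 8.03 without ES replicate 2, and it was lower in HP than in HE1 (-2.75 ± 0.28, adjusted p = 0.000198). The decrease from HE1 to HE2 (-1.20 ± 0.26, adjusted p = 0.0206) was lost without HE1 replicate 2 (adjusted p = 0.0974) and without HE2 replicate 2 (adjusted p = 0.157). HB and HE1 (adjusted p = 0.102) and HE2 and HP (adjusted p = 0.0799) did not pass the test.

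Bmp2, Bmper, and Bmp7 carry enhancers that the study linked to them on that list. Of the regions, 1 belongs to Bmp2, 4 to Bmper, and 1 to Bmp7. The midpoint of the Bmp2 region lies in an exon of the gene, 2.58 kb downstream of its start. For Bmper, 2 regions lie between genes at 10.5 and 18.6 kb upstream of the start, and 2 lie in introns of Bbs9 at 598 and 665 kb upstream. The Bmp7 region lies between genes, 109 kb downstream of the start of Bmp7.

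Smad6 and Smad7 block the receptors, SMAD6 mainly those for BMP and SMAD7 those for both BMP and TGFβ. Smad6 lies on chromosome 9 (63953076 to 64022059, minus strand) and was called higher at both steps up to HE1. ES cells had 9.61 and 8.23 CPM, HB cells 109 and 135 CPM, HE1 cells 361 and 331 CPM, HE2 cells 212 and 114 CPM, and HP cells 93.2 and 84.3 CPM. It rose by 3.77 ± 0.28 from ES to HB (adjusted p = 4.92e-06) and by a further 1.50 ± 0.25 to HE1 (adjusted p = 0.00157), where both libraries lay above all others. It then fell, and HP was lower than HE1 (-1.96 ± 0.25, adjusted p = 0.000694). HB did not differ from HE2 (adjusted p = 0.243) or HP (adjusted p = 0.195) beyond the spread.

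Smad7, on chromosome 18 (75367529 to 75395935, plus strand), was already high in ES. ES cells had 186 and 185 CPM, HB cells 179 and 177 CPM, HE1 cells 263 and 254 CPM, HE2 cells 137 and 61.9 CPM, and HP cells 56.4 and 70.7 CPM. ES and HB differed by a log2 fold change of -0.06 ± 0.28 (adjusted p = 0.892), and HE1 was higher than HB by 0.54 ± 0.28, which did not pass the test (adjusted p = 0.168). Smad7 fell by 1.38 ± 0.29 on the log2 scale from HE1 to HE2 (adjusted p = 0.018) and was lower in HP than in HE1 (-2.03 ± 0.29, adjusted p = 0.00112). It was also lower in HP than in ES (-1.54 ± 0.29, adjusted p = 0.00126). Per length, Smad6 took 6.81% and 5.90% of the pair in ES, 46.2% and 52.0% in HB, then 65.9% and 64.8% in HE1, 68.6% and 72.2% at HE2, then 70.0% and 62.7% in HP. From HE1 to HP the level of Smad6 fell while its share of the pair stayed at 62.7% or more, and in HP its level was still above that of ES (3.31 ± 0.27, adjusted p = 5.41e-06).

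**Figure D2:**
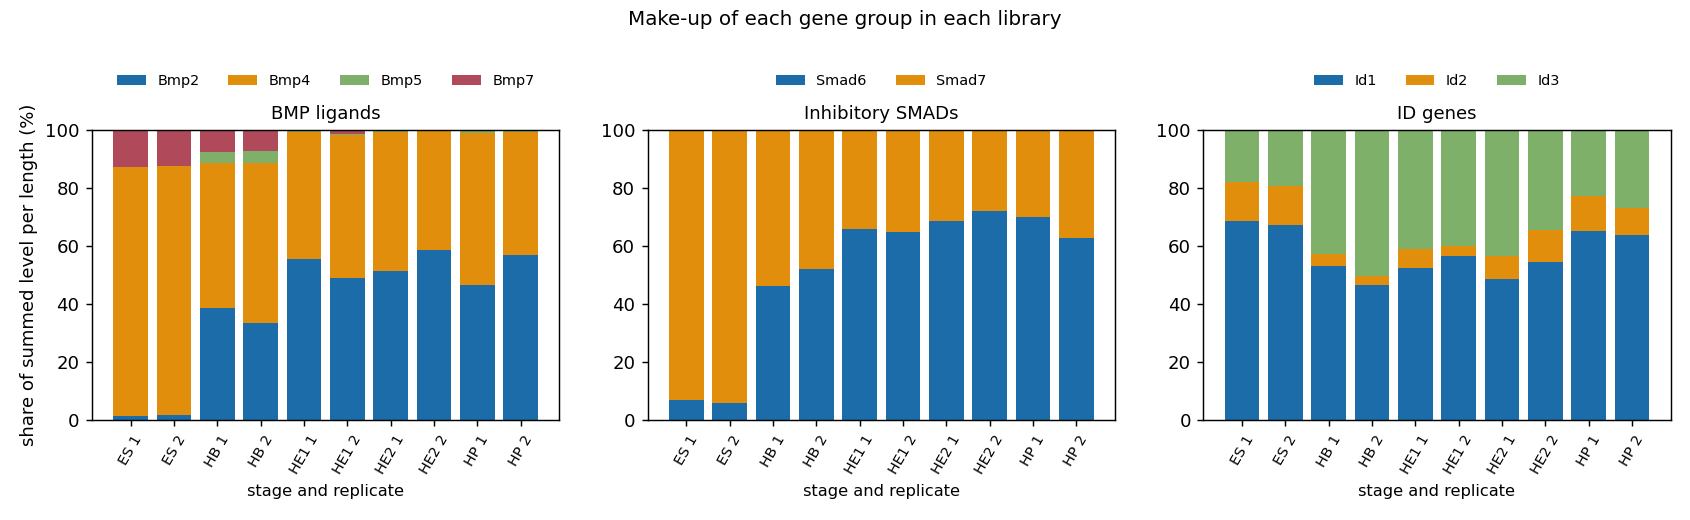
Share of each gene in the summed level per exon length of its group (vertical axis, %) in each of the 10 libraries (horizontal axis, stage and replicate), for the 4 ligands, the 2 inhibitory SMADs, and the 3 ID genes. Bmp4 takes 85.9% of the ligands in ES and shares the sum with Bmp2 from HB on, and Smad6 goes from 6.81% and 5.90% of its pair in ES to at least 62.7% from HE1 on.

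The ID genes are direct targets of SMAD1 and SMAD5 and keep progenitors from differentiating by binding basic helix-loop-helix factors. Id3 changed the most. It lies on chromosome 4 (136143497 to 136145755, plus strand) and stood at 13.1 and 13.4 CPM in ES, 66.4 and 81.0 CPM in HB, then 110 and 78.7 CPM in HE1, 64.2 and 30.0 CPM at HE2, then 11.9 and 15.1 CPM in HP. The libraries of HB and HE1 overlapped, as did those of ES and HP. Id3 rose by 2.47 ± 0.32 from ES to HB (adjusted p = 0.000181) and was lower in HP than in HE1 (-2.81 ± 0.33, adjusted p = 0.000398), and HP did not differ from ES beyond the spread (0.02 ± 0.31, adjusted p = 0.959).

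Id1, on chromosome 2 (152736251 to 152737410, plus strand), was also highest in HE1, followed by HB and HE2, and its range was smaller. ES cells had 33.0 and 30.5 CPM, HB cells 53.4 and 48.3 CPM, HE1 cells 91.5 and 72.1 CPM, HE2 cells 46.9 and 30.7 CPM, and HP cells 22.2 and 23.2 CPM. The HE1 libraries lay above all others and the HP libraries below. The steps from ES to HB (0.68 ± 0.20, adjusted p = 0.021) and from HB to HE1 (0.69 ± 0.20, adjusted p = 0.0259) passed the adjusted p but not 2-fold. The former no longer passed without any 1 of the 4 libraries compared (adjusted p = 0.0537 to 0.116), nor the latter without either ES or HB library or HE1 replicate 1 (0.052 to 0.179). HE1 was higher than ES by 1.36 ± 0.20 (adjusted p = 0.000311). Id1 fell by 1.08 ± 0.20 on the log2 scale from HE1 to HE2 (adjusted p = 0.0124) and by 1.85 ± 0.21 from HE1 to HP (adjusted p = 0.000326).

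Id2, on chromosome 12 (25093799 to 25097140, minus strand), was the member with the least change. ES cells had 13.7 and 13.1 CPM, HB cells 8.59 and 6.84 CPM, HE1 cells 23.8 and 8.78 CPM, HE2 cells 16.1 and 13.3 CPM, and HP cells 8.44 and 6.99 CPM. The 2 HE1 libraries enclosed those of ES and HE2, and no step passed the test, with adjusted p-values of 0.119 from ES to HB, 0.0516 from HB to HE1, 0.804 from HE1 to HE2, and 0.531 from HE2 to HP. The difference from HB to HE1 was 1.07 ± 0.38 with edgeR, and it was called with DESeq2 (1.07, adjusted p = 0.0207), with total counts in place of TMM (1.06, adjusted p = 0.0425), and with no filter on low counts (1.07, adjusted p = 0.00153). The difference from HE1 to HP (-1.07 ± 0.38, adjusted p = 0.0617) was called under the same 3 alternatives (adjusted p = 0.0241, 0.0499, and 0.002). Without HE1 replicate 2 the rise from HB to HE1 was 1.63 (adjusted p = 0.00128), and without HE1 replicate 1 it was 0.14 (adjusted p = 0.679) and the highest stage was HE2. Per length, Id1 made up 46.4% to 68.7% of the 3 ID genes and Id2 3.13% to 13.7% over the 10 libraries, and Id3 went from 17.7% and 19.2% in ES to 42.8% and 50.4% in HB.

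**Figure D3:**
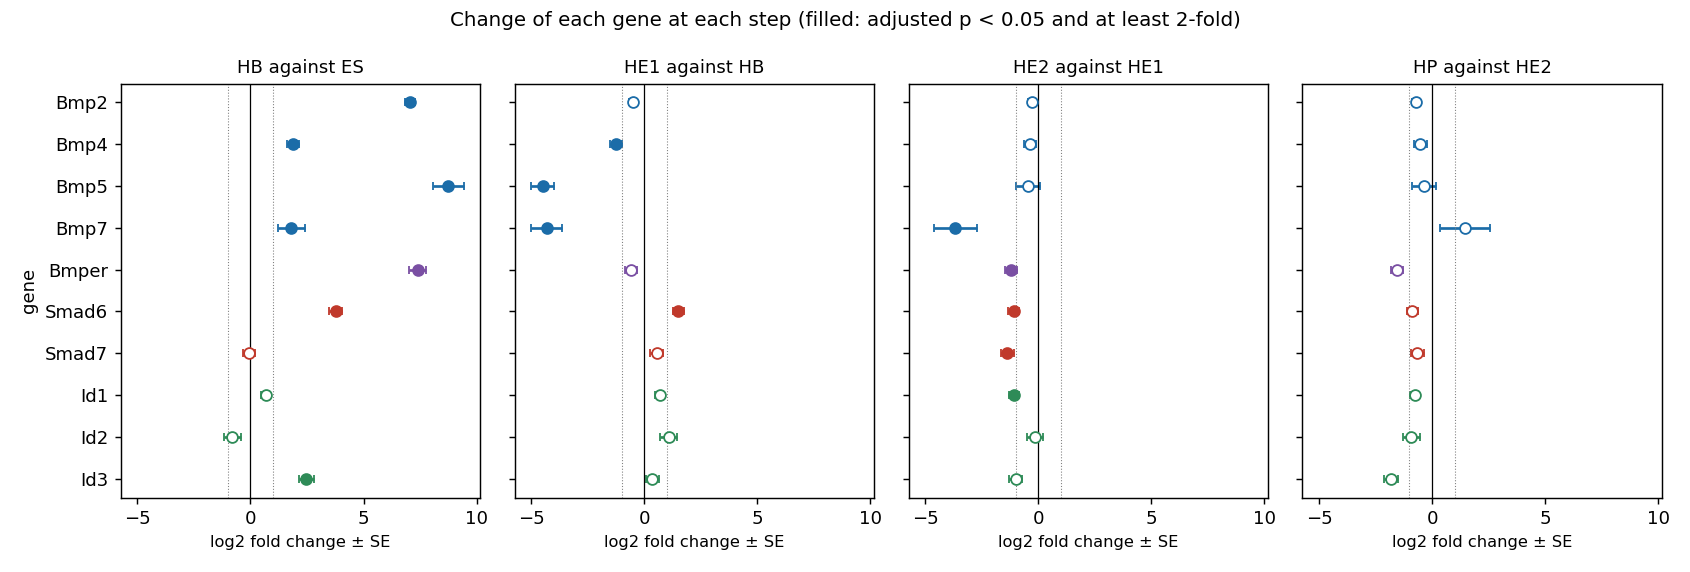
Log2 fold change with its standard error (horizontal axis) of the 10 genes (vertical axis) at each of the 4 successive steps; filled points passed an adjusted p of 0.05 and 2-fold, and dotted lines mark 2-fold. Filled points lie to the right in HB against ES and to the left in HE2 against HE1, none is filled in HP against HE2, and the value of Bmp5 against ES is fitted on 3 counts in ES.

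From HB to HE1, Smad6 was called higher, and Bmp4, Bmp5, and Bmp7 were called lower, so that 1 of 10 rose and 3 of 10 fell where 12.7% of all tested genes were called higher and 8.19% lower. The share called higher is close to that of all genes. The log2 fold change was positive for the inhibitory SMADs and ID targets and negative for the 4 ligands and Bmper, but Smad7, Id2, Id3, and Bmper did not pass the test. The median over the 10 was -0.07, against 0.04 over all tested genes. Without HE1 replicate 2 the counts were 2 higher and 3 lower, with Id2 beside Smad6, where 9.60% and 7.22% of all tested genes were called.

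From HE1 to HE2, Bmp7, Bmper, Smad6, Smad7, and Id1 were called lower, which is 5 of 10 where 5.38% of all tested genes were called lower, and 0 were called higher where 3.26% were. Id3 had a log2 fold change of -1.002 ± 0.31 that did not pass the test (adjusted p = 0.054), and it was called lower with limma-voom (-1.08, adjusted p = 0.0376) and with DESeq2 (-1.01, adjusted p = 0.0123), which called 6 members and 7.94% of all tested genes lower. For Id3 the adjusted p was 0.107 with only the 4 libraries, and with 1 library left out its log2 fold change ran from -1.63 (without HE2 replicate 1, adjusted p = 0.00294) to -0.54 (without HE2 replicate 2, adjusted p = 0.335). The median was -1.04, against -0.08 over all tested genes. The count rests on single libraries, with 1 called gene without HE1 replicate 2, 0 without HE2 replicate 2, and 1 when only the 4 libraries were fitted, and the share of all tested genes called lower went to 1.10%, 0.393%, and 0.903% in the same fits. Without HE1 replicate 2, the gene still called was Id1 (adjusted p = 0.0256), which was under 2-fold without HE1 replicate 1 (-0.87), and the adjusted p was 0.0753 for Smad6 and 0.0673 for Smad7. Without HE2 replicate 2, Id1 had an adjusted p of 0.0883 and Smad6 of 0.136, and the log2 fold change of Smad7 was -0.90, under 2-fold (adjusted p = 0.0416). Beside the pluripotency markers, with Pou5f1 at 2.82 and 26.2 CPM, the HE1 libraries differed in the summed level of 8 endothelial markers (3755 and 2227 CPM) and of 7 mesenchymal markers (390 and 880 CPM). The mesenchymal difference came almost wholly from Col1a1 (176 and 670 CPM). Col3a1 and Pdgfrb were also higher in replicate 2, whereas Col1a2 (154 and 132 CPM), Pdgfra, Lum, and Dcn were lower. The HE2 libraries differed in endothelial markers, with 2416 and 1468 CPM in sum and Cdh5, the endothelial cadherin, at 862 and 412 CPM. They also differed in 7 cardiac and smooth muscle markers (658 and 408 CPM in sum). The sum of 8 hematopoietic markers was 2243 and 2465 CPM. Of these, Runx1 (295 and 519 CPM) and Myb (125 and 227 CPM) were higher in replicate 2 and Hbb-bh1 (1224 and 1062 CPM) lower. In HE1 the hematopoietic sum was 595 and 337 CPM and the cardiac and smooth muscle sum 643 and 1020 CPM. In the HE2 stage, the library with more endothelial RNA also had the higher Smad6, Smad7, Id1, Id3, and Bmper. In HE1 that library had the lower Bmper (33.8 against 40.5 CPM), the higher Id1 and Id3, and much the same Smad6 (361 against 331 CPM) and Smad7 (263 against 254 CPM). The part of these differences in the results was not tested, and in such bulk samples fewer cells of a type and less RNA per cell cannot be told apart.

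From HE2 to HP, 0 of the 10 genes and 0 of all tested genes were called with edgeR, although 7 of the 10 had an unadjusted p under 0.05, as did 7.89% of all tested genes. With limma-voom 0 of the 10 were called and with DESeq2 2, namely Bmper and Id3, which were lower in HP, where 0.854% of all tested genes were called lower. Without the filter on low counts, Bmper and Id3 were called as well, beside 0.997% of all tested genes. When HE2 replicate 2 was left out, 5 genes were called lower, namely Bmper, Smad6, Smad7, Id1, and Id3, beside 1.95% of all tested genes. The largest differences were those of Id3 (-1.80 ± 0.32, adjusted p = 0.0809) and Bmper (-1.55 ± 0.27, adjusted p = 0.0799), and neither overlapped between the 2 stages.

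Between HE1 and HP, which HE2 separates, Bmper, Smad6, Smad7, Id1, and Id3 were called lower, 5 of 10 where 11.2% of all tested genes were, and 0 were called higher where 5.35% were. Bmp2 (-0.99 ± 0.17, adjusted p = 0.00286) and Bmp4 (-0.90 ± 0.27, adjusted p = 0.0331) passed the adjusted p but were under 2-fold. Bmp4 no longer passed without either HE1 library or without HP replicate 2, and its log2 fold change was -0.57 without HP replicate 2 and -1.29 without HP replicate 1. With total counts Bmp2 was called (-1.01, adjusted p = 0.00124). With total counts and with no filter on low counts, 7 of the 10 were called lower, beside 10.6% and 8.96% of all tested genes. All 10 genes had a negative log2 fold change, with a median of -1.91 against -0.02 over all tested genes. Without HE1 replicate 2, Bmp2 and Id2 were called lower too, which makes 7, beside 6.86% of all tested genes. These comparisons share their HE1 libraries with the step from HE1 to HE2.

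The wider pathway was read from a list of 64 other genes, of which 57 were tested. From ES to HB, 19 were called higher and 8 lower, where 11.5% and 17.3% of all tested genes were, so that the share called lower was under that of all genes. From HB to HE1, 14 were called higher and 14 lower, beside 12.7% and 8.19% of all tested genes. From HE1 to HE2 it was 0 and 13 (3.26% and 5.38% of all), from HE2 to HP 0 and 0, and from HE1 to HP 0 and 24 (5.35% and 11.2% of all). From HE2 to HP, edgeR gave 17 with an unadjusted p under 0.05, DESeq2 called 1, limma-voom 0, and edgeR without the filter 6. The count from HE1 to HE2 fell to 2 with only the 4 libraries compared. It also fell without HE1 replicate 2, without HE2 replicate 2, and without any 1 of the ES and HB libraries, which are outside this comparison. Without HE2 replicate 1 it rose.

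Among other ligands, 0 of 9 tested were called higher and 5 lower from ES to HB, where 11.5% and 17.3% of all tested genes were. Of the 5, only Gdf3 had a mean of at least 9 CPM in either stage. Bmp15, with a mean of 0.405 CPM in ES, lost its call with DESeq2 (adjusted p = 0.139) and with a replicate block (0.0545). Gdf3, a TGFβ family ligand of pluripotent cells, went from 127 ± 0.19 to 0.420 ± 0.43 CPM (SD, n = 2) with an adjusted p of 3.17e-06. From HB to HE1, 4 were called higher and 1 lower, beside 12.7% and 8.19% of all tested genes. Bmp6, a ligand of the BMP7 subfamily made by endothelium, stood at 11.8 and 12.4 CPM in HB and at 194 and 182 CPM in HE1, a rise of 3.96 ± 0.70 (adjusted p = 0.00219), and it stood at 63.1 and 13.5 CPM in HE2 and 3.83 and 15.2 CPM in HP. The decrease to HE2 (-2.29 ± 0.65, adjusted p = 0.0442) was lost with only the 4 libraries (0.0587), a replicate block (0.0611), or total counts (0.056), without any 1 of the ES, HB, and HE1 libraries (0.0514 to 0.137), and without HE2 replicate 2 (-1.56, adjusted p = 0.23). Bmp6 thus rose in HE1 while Bmp4, Bmp5, and Bmp7 fell.

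Of 11 receptors and co-receptors, 2 were called higher and 0 lower from ES to HB, and 2 higher and 4 lower from HB to HE1. These counts by role are small and are read against the same shares of all genes. At each of the 2 steps Acvrl1, a type I receptor of endothelium, was called higher, the latter call being lost without HB replicate 1 (adjusted p = 0.0631) or HB replicate 2 (0.0755). ES cells had 3.07 and 2.95 CPM, HB cells 22.1 and 21.8 CPM, HE1 cells 163 and 92.2 CPM, HE2 cells 76.8 and 16.5 CPM, and HP cells 5.65 and 13.9 CPM. Its co-receptor Eng rose by 3.39 ± 0.32 from HB to HE1 (adjusted p = 5.42e-05), to 623 and 361 CPM. Bmpr2, the type II receptor, rose by 1.01 ± 0.20 from ES to HB (adjusted p = 0.00267), which was just under 2-fold with DESeq2 and was 0.95 without HB replicate 1. From HE1 to HP, 6 of the 11 were called lower, Acvrl1 by a log2 fold change of -3.71 ± 0.65 (adjusted p = 0.00281), or -4.48 without HP replicate 2. In HE1 and HE2 the library with more endothelial marker RNA also had the higher Acvrl1 and Eng.

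Of the 4 SMADs that carry the signal, 2 were called higher from ES to HB. Smad1 stood at 21.9 and 22.0 CPM in ES, 211 and 256 CPM in HB, then 105 and 99.6 CPM in HE1, 68.3 and 51.4 CPM at HE2, then 35.8 and 37.1 CPM in HP. It rose by 3.41 ± 0.18 (adjusted p = 7.91e-07) and then fell by 1.19 ± 0.16 on the log2 scale to HE1 (adjusted p = 0.000492), the opposite direction to Smad6 at that step. Of 18 tested extracellular modulators, 6 were called higher and 2 lower from ES to HB, the latter a smaller share than the 17.3% of all tested genes. Among the former were Tll1, a metalloprotease that cleaves the antagonist chordin (3.84 ± 0.30, adjusted p = 6.33e-06), and Fst, the activin antagonist follistatin (2.16 ± 0.48, adjusted p = 0.00472). From HB to HE1, 5 were called higher and 4 lower, with Sost, a secreted antagonist best known in bone, at 3.34 and 2.73 CPM in HB and 51.2 and 81.3 CPM in HE1 (4.45 ± 0.99, adjusted p = 0.0072, or 0.0666 without HB replicate 2). Crim1, a membrane protein that binds BMPs, rose by 3.19 ± 0.23 at the same step (adjusted p = 1.31e-05).

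Of 6 intracellular and membrane inhibitors, 2 were called higher and 1 lower from ES to HB, the latter close to the 17.3% of all tested genes. Bambi, a decoy receptor, rose by 2.74 ± 0.22 (adjusted p = 8.91e-06) and fell by 1.13 ± 0.21 on the log2 scale to HE1 (adjusted p = 0.00287). Smurf1, a ubiquitin ligase that acts with Smad6 and Smad7 on the receptors, rose by 1.08 ± 0.21 from HB to HE1 (adjusted p = 0.0033), just under 2-fold without HB replicate 1, and fell by 1.51 ± 0.21 on the log2 scale from HE1 to HP (adjusted p = 0.000922). Of 9 further target genes tested, 7 were called higher and 0 lower from ES to HB, with Msx1 going from 1.61 and 1.72 CPM to 118 and 126 CPM (6.19 ± 0.38, adjusted p = 1.53e-06) and Hand1 from 1.60 and 1.81 CPM to 105 and 137 CPM (6.16 ± 0.44, adjusted p = 3.85e-06). Hand1 also stands on the list of early mesoderm markers. From HB to HE1, 1 of the 9 further target genes was called higher, 3 lower, and 5 were not called, beside 12.7% and 8.19% of all tested genes. Msx1 had the largest called change among them, a decrease of 3.27 ± 0.32 on the log2 scale (adjusted p = 7.08e-05).

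**Figure D4:**
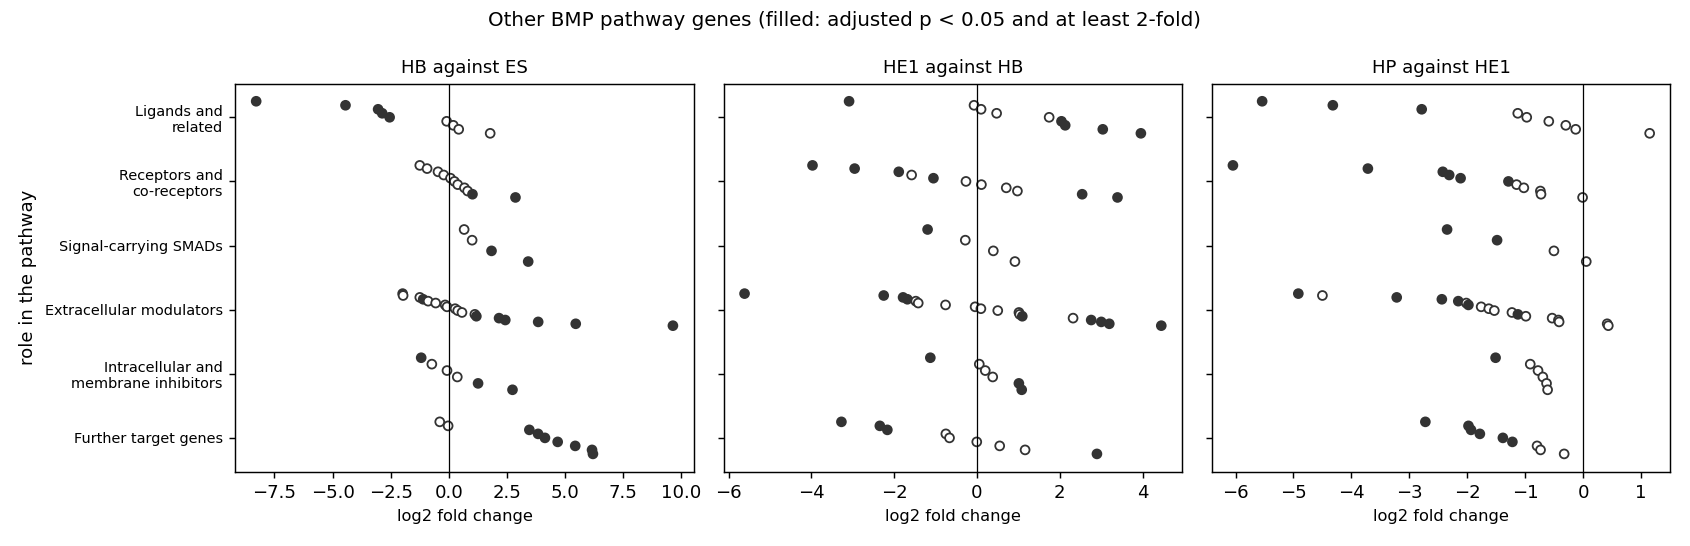
Log2 fold change (horizontal axis) of the 57 tested genes of the wider pathway, grouped by role (vertical axis, points spread for legibility), for HB against ES, HE1 against HB, and HP against HE1; filled points passed an adjusted p of 0.05 and 2-fold. Of the 57, 19 are called higher in HB and 24 are called lower in HP than in HE1, none higher.

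The labels of the populations were read against marker lists. The summed level of the 7 pluripotency markers was 3479 and 3440 CPM in ES, 422 and 441 CPM in HB, and 2.26 to 97.6 CPM in the other stages. In HB most of it was Tdgf1 (305 and 353 CPM), with Pou5f1 at 62.7 and 52.9 CPM and Sox2 at 7.30 and 2.11 CPM. The sum of 7 early mesoderm and hemangioblast markers was 12.5 CPM in each ES library, 1602 and 2027 CPM in HB, and 816 to 1576 CPM from HE1 to HP. Kdr, which codes for FLK1, stood at 2.43 and 2.70 CPM in ES and 956 and 1284 CPM in HB. From HE1 to HP, Kdr stood at 334 to 1264 CPM, whereas Mesp1 fell from 74.6 and 78.4 CPM in HB to at most 0.165 CPM. The endothelial sum was 193 to 316 CPM in ES and HB, 3755 and 2227 CPM in HE1, and 750 and 723 CPM in HP, and that of 8 hematopoietic markers went from 28.5 and 26.7 CPM in ES to 4089 and 2810 CPM in HP. Markers of other cells were found too. Acta2 of smooth muscle stood at 16.1 and 19.7 CPM in ES and 2.25 and 2.06 CPM in HB. It stood at 403 and 569 CPM in HE1, then 428 and 278 CPM at HE2, then 529 and 249 CPM in HP. The sum of its list of 7 was 32.8 to 109 CPM in ES and HB and 365 to 1020 CPM from HE1 to HP. Most of the later sum was Acta2 and Tagln (108 to 350 CPM). Tnnt2, Cnn1, and Nkx2-5 had their highest mean in HE1. Myl7, with a mean of 13.7 CPM in HB, and Myh6, with 6.64 CPM in ES, stood at 2.48 CPM or less from HE1 on. Of 6 endoderm markers, Afp was at or near 0, with at most 0.342 CPM. Their sum was 7.63 to 231 CPM, most of it in HB and HE1 from Gata4, a factor that mesoderm also uses, at 199 and 229 CPM in HB and 184 and 156 CPM in HE1. The 4 neural markers summed to 1.35 to 76.1 CPM. Levels of the 10 genes in HE1 to HP are those of all RNA in a gate, and which cells made them was not tested.

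**Figure D5:**
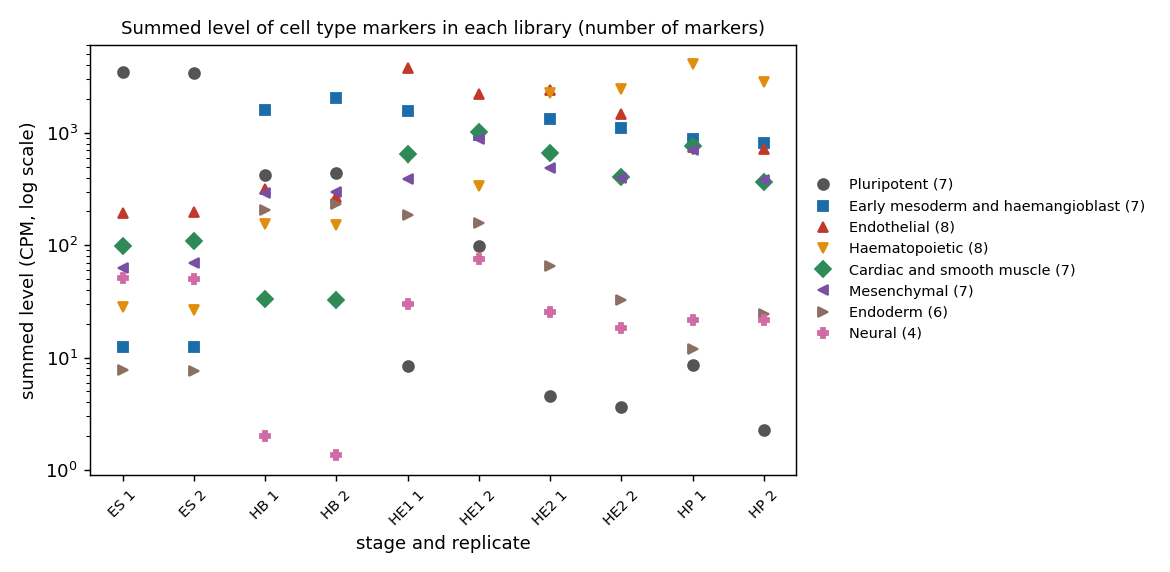
Summed level of each marker list (vertical axis, CPM, log scale) in each of the 10 libraries (horizontal axis, stage and replicate), with the number of markers in the legend. HE1 replicate 2 has more pluripotency RNA (97.6 CPM) than replicate 1 (8.41 CPM) and less endothelial RNA (2227 against 3755 CPM).

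The genes whose log2 CPM followed each member most closely over the 10 libraries were taken from 16279 genes with a mean of at least 1 CPM, by Pearson's r. Since the libraries of a stage share that stage, r describes mainly the 5 stage levels. Bmp2 was most like Kdr (r = 0.998), Pcdh7 (0.993), and Gata2 (0.993), of which Gata2 is also on the list of further targets. Bmp4 was most like Egflam (0.982), Bmp5 like Cdh6 (0.993), Bmp7 like Ccdc136 (0.995) and the BMP co-receptor Rgma (0.993), and Bmper like Shisa9 (0.992). Smad6 was most like Phc2 (0.997) and Ets1 (0.995), Smad7 like Galnt17 (0.990), Id1 like Kif1c (0.986), Id3 like Pcdhgc3 (0.984), and Id2, with the lowest value, like Ssbp4 (0.947).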

How the data were processed

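The authors removed remaining rRNA reads (RiboDetector), trimmed by quality (Trimmomatic), used HISAT2 (v2.2.1) to align the rest to mm10, and deposited 1 table of counts per library, in which featureCounts (v2.0.1) assigned read pairs by strand to exons of Ensembl release 102 genes, a pair that overlapped several genes being counted on each. No member shares exons on its strand with another gene. The deposited matrix of 15686 genes holds the authors' expression score per stage and was used only for choosing the members and for the stage of the highest level.

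In R (v4.3.3), edgeR (v4.0.16) was fitted to the counts of all 10 libraries with stage as the only term (filterByExpr, TMM, quasi-likelihood F test, Benjamini-Hochberg adjustment over 22596 genes, 5 residual degrees of freedom). Alternatives were limma-voom (limma v3.58.1), DESeq2 (v1.42.0), total counts, library sizes without the 20 top genes, no filter, only the 4 libraries compared, a replicate block, other fold thresholds, and each library left out. Members and lists were chosen with earlier results of these data known. Pathway genes are named by the largest called change per role (up to 2 per comparison, at least 9 CPM in 1 stage). Tests cover counting error and the spread between libraries only.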

Additional observations from a re-analysis of the deposited data

How the results depend on the processing

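Of the counts of called genes, 166 were within 1.5 times their value under the alternatives and 24 were not, and of the log2 fold changes 1077 kept direction and call, 25 lost and 30 gained a call, and 23 changed sign. With at least 4-fold, the members called from HB to HE1, HE1 to HE2, and HE1 to HP were 2, 1, and 3, and the other pathway genes from HE1 to HE2 and HE1 to HP 2 and 14. With only the 4 libraries compared, the step from HE1 to HE2 held 1 member and 2 pathway genes. From HE2 to HP, DESeq2 called 2 members and 1 pathway gene, and no filter gave 2 and 6. Over the libraries left out in turn, members called ran from 6 to 7 from ES to HB, 3 to 5 from HB to HE1, 0 to 6 from HE1 to HE2, 0 to 5 from HE2 to HP, and 5 to 7 from HE1 to HP, and pathway genes from 3 to 20 from HE1 to HE2 and 0 to 9 from HE2 to HP. The lowest counts from HE1 to HE2 came without HE1 replicate 2 and HE2 replicate 2.

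The changes of sign were all in differences that had not been called. Smad7 in HB against ES was 0.020 with total counts, Id2 in HE2 against HE1 was 0.080 with limma-voom, and Id3 in HP against ES was -0.00046 with limma-voom. Id2 in HP against HB was -0.00672 with DESeq2, -0.00206 with total counts, -0.019 without the 20 top genes, and -0.00053 with only the 4 libraries. With libraries left out, the range was -1.39 to 0.11 for Bmp5 in HE2 against HE1, -0.95 to 0.60 for Bmp5 and -1.11 to 0.034 for Smad7 in HP against HE2, and -0.69 to 0.77 for Id2 in HE2 against HE1. Against ES the ranges were -0.00082 to 0.46 for Bmp4, -0.045 to 0.56 for Id1, and -0.0041 to 0.26 for Id2 in HE2, and -0.67 to 0.051 for Bmp4 and -0.15 to 0.18 for Id3 in HP. Against HB they were -0.093 to 0.80 for Smad6 in HE2 and -0.16 to 0.14 for Id2 in HP.

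A replicate block left every count of members as it was, at 7, 4, 5, 0, and 5, and the pathway counts within 1.5 times. The numbers are not shown to pair the libraries, as the deviations of same-numbered libraries correlated between -0.316 and 0.213. The cause of these changes was not tested. With 2 libraries per stage, a stage with 1 left out is assumed to vary like the others.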
